A study of Ovis aries with 17 samples.

Results

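The genes described here were those whose signal in sheep macrophages (MP) and in monocyte-derived dendritic cells (MoDC) lay above every B cell, plasmacytoid dendritic cell (pDC), cDC2 and cDC1 array. A gene was a member when its probe was well above background on all 6 MP and MoDC arrays and its lowest value there exceeded its highest value on the 11 other arrays. Of 14550 genes on the array, 281 met this rule, which is 1.93% of all genes and 3.45% of the 8148 genes detected on all 6 arrays. CD14, ITGAM, IL1B and ABHD5 were left out by name, and 277 genes remained. The members were thus selected on the measured values of all 17 arrays, so the difference between the 6 and the 11 arrays is described below without a test.

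The 17 one-colour arrays held one RNA sample each. B cells (4 arrays) and MP (3) were sorted from sheep spleen, MP by CD14 and B cells with an antibody to ruminant B cells. pDC (3), cDC2 (3, labelled DC XCR1-) and cDC1 (1, labelled DC XCR1+) were sorted from low-density blood cells, cDC1 as CADM1 high and CD172 low and cDC2 as the opposite. MoDC (3) came from separate cultures with GM-CSF, and per the study they were grown from bone marrow cells. Per the study, the sheep used for blood were females of the Prealpe breed. RNA of several animals was mixed where a sort gave too little, and the labels do not say which arrays these were or give breed or age. The p-values therefore measure the spread between these RNA samples.

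Macrophages are tissue phagocytes that engulf and degrade microbes and dying cells, whereas dendritic cells carry antigen to lymphocytes. Blood monocytes or marrow precursors cultured with GM-CSF take on features of both. Phagocytes draw on metal transport across the phagosome membrane, on NADPH from the pentose phosphate pathway and on the release of cytokines of the interleukin-1 family.

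Only 9 of the 277 identifiers carried a gene symbol, and they stood for 8 genes because INHBA was present under 2 identifiers. The 7 described here were, by role, the metal transporter SLC11A1, the metabolic genes PDXK, PGD, SLC2A3 and ALDH1A1, and the secreted factors IL1A and INHBA. The share with a symbol, 3.25%, was close to the 2.93% of all 15060 probes. Another 6 members carried only an identifier with an Ensembl-style number, which no table here pairs with a sheep symbol.

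For the 6 members that lay farthest above the other subsets no gene name was at hand, and the 60-base probe is their only identity, so the probes are printed as the array files list them, 5′ to 3′.
BL_OTH_F001153: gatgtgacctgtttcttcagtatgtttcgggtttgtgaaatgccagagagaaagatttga
BL_OTH_F000649: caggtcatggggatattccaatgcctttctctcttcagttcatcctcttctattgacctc
A_70_P046591: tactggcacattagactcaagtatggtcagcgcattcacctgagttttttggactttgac
BL_OTH_F001536: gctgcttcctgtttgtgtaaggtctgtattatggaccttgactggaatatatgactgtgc
A_70_P046781: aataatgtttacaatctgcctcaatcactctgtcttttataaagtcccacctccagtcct
A_70_P030806: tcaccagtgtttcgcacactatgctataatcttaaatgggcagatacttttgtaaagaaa
The probes of the named genes that differed most between MP and MoDC follow. Both INHBA identifiers had the same 60 bases.
INHBA: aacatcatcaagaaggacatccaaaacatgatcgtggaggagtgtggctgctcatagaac
IL1A: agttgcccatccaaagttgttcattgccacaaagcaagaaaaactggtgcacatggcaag
ALDH1A1: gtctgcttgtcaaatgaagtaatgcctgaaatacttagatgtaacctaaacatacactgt
A further 3 members overlapped in sequence and are shown because they count as separate identifiers. Capitals mark the 28 bases that all 3 share.
BL_OCA_F000161: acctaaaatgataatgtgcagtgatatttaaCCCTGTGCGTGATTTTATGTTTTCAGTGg
BL_OCA_F000440: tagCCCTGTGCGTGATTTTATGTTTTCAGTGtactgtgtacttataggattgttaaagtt
BL_OTH_F000646: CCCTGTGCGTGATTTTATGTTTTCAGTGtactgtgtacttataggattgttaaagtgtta
Counting probes with at least 20 bases in common once left 274 distinct members.

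The probes of the members were poorer in G and C than the array as a whole, with a median of 38.3% against 43.3% of all probes. The letters AATAAA, read on the listed strand only, occurred in 40 of 277 member probes (14.4%) and in 7.54% of all probes. ATTTA, read on the same strand, occurred in 7.94% of member probes and in 8.57% of all probes. These are descriptions of the probe letters, and the share of AATAAA moves with base composition, whose part in it was not tested.

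Levels are given as log2 of the processed signal relative to the 75th percentile of the same array, so 0 is a signal at that percentile and a step of 1 is 2-fold. Signals at the 75th percentile ranged from 194 to 688 over the 17 arrays and 61.1% to 80.2% of the spots were well above background, with no saturated spot. The 3 cDC2 arrays, the cDC1 array and B replicate 4 shared 1 slide and a later version of the scanner software, and each of the other 3 slides held 1 array each of B, pDC, MP and MoDC. Only 4 of 15 macrophage and monocyte markers had a symbol on the array, namely CD14, CSF1R, ITGAM and LYZ. Their summed linear level was 231 to 287 in MP, 74.5 to 111 in MoDC, 50.5 to 59.5 in cDC2, 33.2 in cDC1, 1.79 to 4.18 in B and 1.55 to 2.83 in pDC. The 4 did not move together. LYZ had a mean log2 level of 7.49 in MP, 3.01 in MoDC, 5.40 in cDC2 and 4.64 in cDC1. CSF1R was also lower in MoDC (-3.54) than in cDC2 (-2.86), while CD14 and ITGAM were higher in MoDC. MP were sorted by CD14, so that gene does not check their label. Of 21 T and NK cell markers 5 had a symbol on the array. Their sum was 44.6 to 49.2 in pDC against 1.09 to 2.54 in MP and 0.479 to 1.35 in MoDC. The B cell marker CR2 gave at least 18.4 in B and at most 0.693 elsewhere. The part of other cells in the pDC arrays was not tested.

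The gap between the lowest MP or MoDC array and the highest other array had a median of 0.47 on the log2 scale, or 1.39-fold. It reached at least 1.5-fold in 113 members, 2-fold in 66 and 4-fold in 18. At the limit of the rule, BL_OTH_F000505 was inside with 4.146 on its lowest array against 4.143 on the highest other array, and BL_OTH_F000327 with 2.896 against 2.892. BL_OTH_F000690 was just outside with 5.254 against 5.256, and A_70_P060351 with 3.646 against 3.649. The lowest of the 6 arrays was an MP array in 190 members and a MoDC array in 87, a split not counted over all genes. The highest of the 11 was most often a cDC2 array, in 149 members (53.8%), against 20.3% of all 11469 genes tested. It was a B array in 47 members, a pDC array in 43 and the cDC1 array in 38. A single array, cDC2 replicate 2, supplied the highest of the 11 for 82 members.

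The 277 members were not silent in the other subsets. A signal well above background on every array of the subset was found for 268 members in cDC2, 240 in cDC1, 217 in B and 215 in pDC. It was found on all 11 of these arrays for 201 members and no member lacked it on all 11. Of all spots on single arrays, 72.2% to 80.2% were well above background in cDC2 and 68.1% in cDC1. The shares were 70.0% to 77.5% in B and 68.3% to 72.3% in pDC. The share of all genes with such a signal on every array of a subset was not counted. The medians of the subset means over the members were 2.25 in MoDC, 1.49 in MP, -0.21 in cDC2, -0.78 in cDC1, -1.45 in B and -1.67 in pDC. Over all genes tested the corresponding medians lay between -1.68 and -1.34. In bulk RNA a smaller number of expressing cells and a lower amount per cell cannot be told apart.

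**Figure D1:**
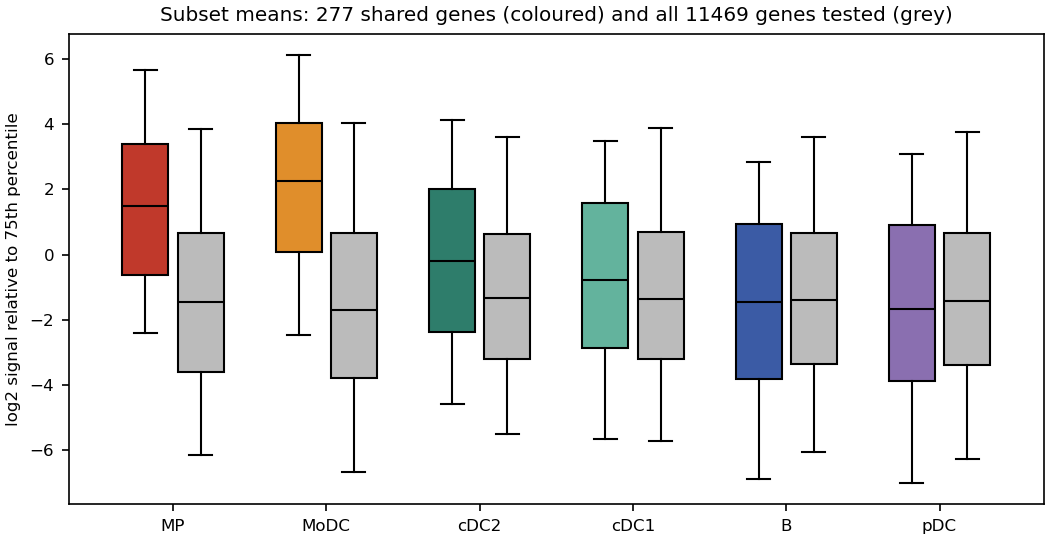
Subset means of the 277 shared genes (coloured boxes) and of all 11469 genes tested (grey boxes), as log2 signal relative to the 75th percentile of the array; boxes span the quartiles, the line is the median and whiskers reach the lowest and highest 5%. MP and MoDC are high by the rule, and among the other subsets the coloured median is highest in cDC2, at -0.21.

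SLC11A1, a divalent metal transporter of the phagosome membrane, was high in both cell types. Its levels were 5.61, 6.45 and 6.44 on the 3 MP arrays and 4.96, 5.11 and 6.33 on the 3 MoDC arrays. On the cDC2 arrays they were 2.67, 2.78 and 2.87, and on the cDC1 array 2.28. The 4 B arrays ranged from -0.22 to 2.20 and the 3 pDC arrays from -2.94 to 0.24. The MP and MoDC arrays overlapped, and the remaining subsets followed in the order cDC2, cDC1, B and pDC, with the B and pDC arrays overlapping. The difference of 0.70 ± 0.73 (SE) between MP and MoDC did not pass the test (limma, adjusted p = 0.512).

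PDXK, the kinase that forms the active vitamin B6 cofactor, had the widest gap among the named genes, 2.44. It stood at 5.17, 4.86 and 4.84 on the MP arrays and at 5.27, 5.60 and 6.18 on the MoDC arrays. The highest other value was 2.40, on the cDC1 array, and the cDC2 arrays reached 1.91 to 2.29, the pDC arrays 0.68 to 1.06 and the B arrays -0.61 to 0.87. All 3 MoDC arrays lay above all 3 MP arrays, yet the difference of -0.72 ± 0.37 (SE, MP minus MoDC) did not pass (limma, adjusted p = 0.159).

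PGD encodes an NADPH-forming dehydrogenase of the oxidative pentose phosphate pathway. It was at 2.91, 3.49 and 4.00 in MP and at 4.36, 4.99 and 3.01 in MoDC. The MP and MoDC arrays overlapped, with a difference of -0.65 ± 0.44 (SE) that did not pass (limma, adjusted p = 0.292). Without MoDC replicate 3 the difference was -1.21 and passed (limma, adjusted p = 0.0186; 0.0186 to 0.754 over the alternatives). The cDC2 arrays were next, at 2.62 to 2.70, and the gap was only 0.21. The cDC1 array was at 1.62, and B and pDC overlapped at the bottom, between 0.20 and 1.26.

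SLC2A3, a facilitative glucose transporter, was at 5.09, 6.61 and 5.85 in MP and at 6.33, 5.04 and 5.77 in MoDC, again overlapping (difference 0.14 ± 0.43 SE, limma adjusted p = 0.837). One of the pDC arrays reached 4.30, inside the range of 3.95 to 4.44 of the cDC2 arrays. The cDC1 array was lowest, at 2.35. Of the 23 genes of a glycolysis and hypoxia list, 5 were on the array with a symbol. PGD and SLC2A3 were members, whereas GAPDH and VEGFA were not.

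ALDH1A1, which oxidises retinaldehyde to retinoic acid, was at 0.53, 2.64 and 1.03 in MP and at 3.99, 4.11 and 4.92 in MoDC. The MoDC arrays were all higher, with a difference of -2.94 ± 0.62 (SE, MP minus MoDC), or 7.67-fold (limma, adjusted p = 0.00281). The cDC1 array, at -0.06, was the highest of the others, and the gap to MP replicate 1 was 0.59.

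IL1A encodes interleukin-1 alpha, an alarm cytokine released by damaged or activated cells. It was at -2.06, -2.77 and -2.05 in MP and at 3.87, 3.15 and 3.30 in MoDC. The MoDC arrays were all higher, with a difference of -5.73 ± 0.88 (SE), or 53.2-fold (limma, adjusted p = 2.9e-04). On the other arrays the probe was well above background on 1 of 4 B, 1 of 3 pDC, 2 of 3 cDC2 and not on the cDC1 array, where MoDC was at least 287-fold and MP at least 5.39-fold higher. Of 44 listed cytokines, chemokines and receptors, 12 had a symbol on the array and 11 were tested. IL1A was the 1 member among them. It no longer met the rule after normexp background correction.

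INHBA encodes the beta A subunit of activin A and inhibin A, secreted members of the TGF-beta family, and showed the widest difference between MP and MoDC among the members called. Under the first identifier its levels were -2.49, -2.09 and -2.60 in MP and 4.96, 6.33 and 5.87 in MoDC. Under the second they were -2.45, -2.11 and -2.71 in MP and 4.90, 6.24 and 5.86 in MoDC. The groups were far apart, with differences of -8.11 ± 0.61 and -8.09 ± 0.57 (SE), or 277-fold and 272-fold (limma, adjusted p = 4.7e-07 and 2.7e-07). The first identifier was not well above background on any pDC array or on the cDC1 array, which puts MP at least 7.53-fold and MoDC at least 2086-fold above pDC for that identifier. Under the second, well above background on 1 of 3 pDC arrays, the same folds were 6.32 and 1718. At these low signals the same 60 bases gave -6.86, -7.74 and -5.72 in pDC under the first identifier and -5.87, -3.38 and -5.99 under the second. The gap was 2.17 under the first and 0.67 under the second, and neither met the rule after normexp background correction.

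**Figure D2:**
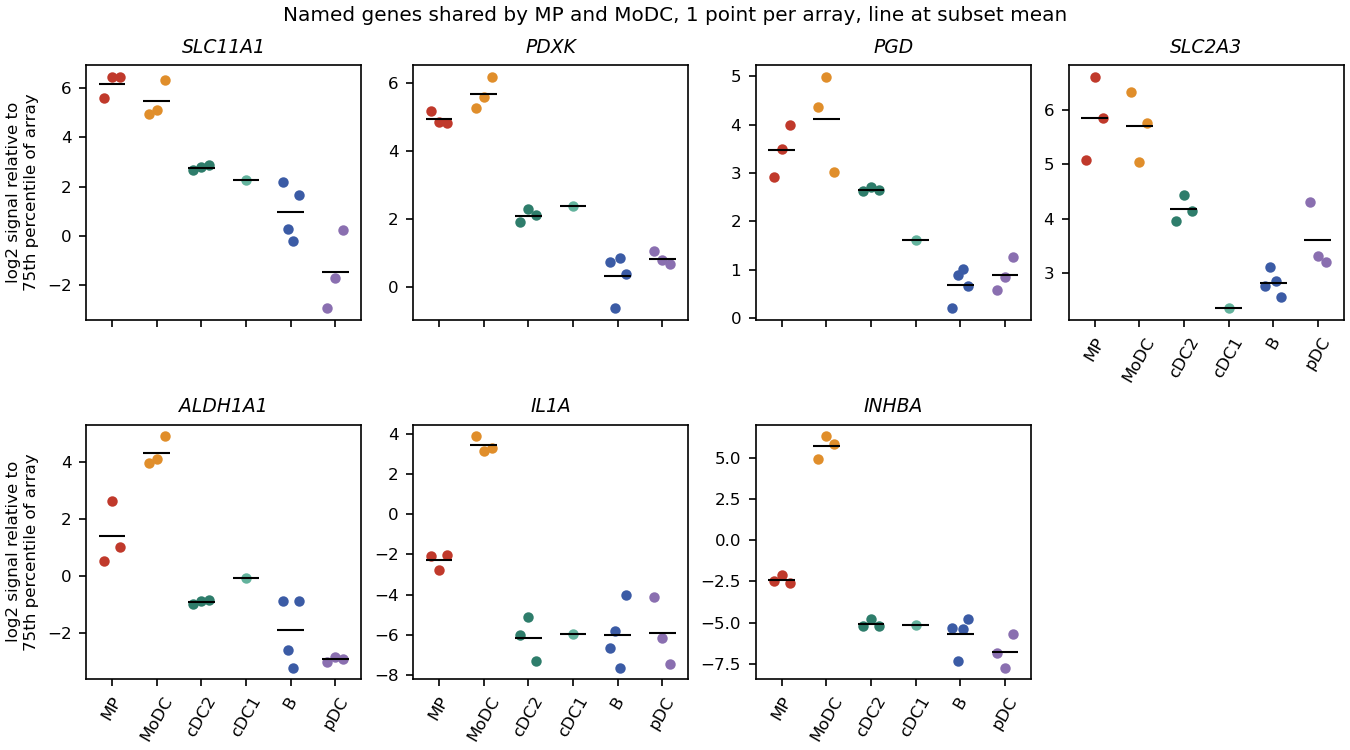
Levels of 7 named genes on each array (points) with the subset mean (line), as log2 signal relative to the 75th percentile, by cell subset; INHBA is drawn for its first identifier and each panel has its own vertical scale. MP and MoDC overlap in SLC11A1, PGD and SLC2A3, and MoDC lies far above MP in IL1A and INHBA.

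The 6 unnamed members with the widest gaps behaved in different ways. BL_OTH_F001153, with a gap of 4.44, was at 1.94, 1.97 and 1.81 in MP and at 1.96, 2.25 and 3.69 in MoDC, and the highest other array was a cDC2 array at -2.63. BL_OTH_F000649, with a gap of 3.51, was at 4.74, 3.27 and 3.66 in MP and at 3.61, 4.14 and 4.16 in MoDC, with cDC2 between -0.57 and -0.23. A_70_P046781 was at 2.17, 1.78 and 1.34 in MP and at 1.46, 1.36 and 1.95 in MoDC. In these 3 members MP and MoDC overlapped, and none passed the test between them (limma, adjusted p from 0.285 to 0.894). A_70_P046591 was at -0.59, -1.09 and -0.67 in MP and at 3.81, 4.18 and 5.40 in MoDC, and the 38.1-fold difference passed (limma, adjusted p = 6.6e-06). BL_OTH_F001536 was at 1.68, 2.33 and 2.39 in MP and at 3.92, 4.44 and 4.64 in MoDC. The arrays did not overlap, but the 4.60-fold difference narrowly missed the threshold (limma, adjusted p = 0.0588), and passed with slide as a block (adjusted p = 0.0306; 1.7e-05 to 0.153 over the alternatives). A_70_P030806 was at 5.39, 6.09 and 5.33 in MP and at 6.30, 6.80 and 7.93 in MoDC, which did not overlap and did not pass either (difference -1.41 ± 0.71 SE, limma adjusted p = 0.159). A difference that did not pass is not shown to be absent.

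The rule did not order MP and MoDC, but it used the same 6 arrays, acting on the lowest of them, so the differences between MP and MoDC are not independent of it. The median SD over the members was 0.27 in MP and 0.50 in MoDC. At an adjusted p under 0.05 and at least 2-fold in limma, 58 of 277 members (20.9%) were called, against 25.8% of all 11469 genes tested. Of these 52 were higher in MoDC (18.8% of members, 11.4% of all genes) and 6 were higher in MP (2.17% of members, 14.4% of all genes). The median difference, MP minus MoDC, was -0.52 over the members and 0.22 over all genes tested, and 208 members lay on the MoDC side. Over the 8148 genes detected on all 6 arrays, as the rule asks of members, 9.65% were called higher in MoDC and 13.6% higher in MP, with a median difference of 0.18. The share called was thus near that of all genes. The part of the rule in the split by direction was not tested. With the spread taken from the 6 MP and MoDC arrays alone, 30 members were called (10.8%, against 11.8% of all genes), all of them higher in MoDC. In that fit the split over all genes turned, with 6.36% higher in MoDC and 5.42% higher in MP. The count of 6 higher in MP was 3 without MP replicate 2 and 3 among the 201 members well above background on all 17 arrays. It was 11 in the series table and 10 with no minimum fold.

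Without any test, all 3 MoDC arrays lay above all 3 MP arrays in 102 members (36.8%, against 16.6% of all genes), and the reverse held in 18 members (6.50%, against 20.2%). Within the 3 slides that held both, the median difference over the members was -0.27, -0.42 and -0.91, while that over all genes was 0.05, 0.24 and 0.12. The folds of the 52 ran from 2.05 to 277 with a median of 4.45, and 12 reached 8-fold. Those of the 6 ran from 2.40 to 2.95.

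Among the 6 higher in MP, the pair with the widest difference carried no symbol. A_70_P060731 was at -1.55, -0.72 and -2.06 in MP and at -3.10, -3.09 and -2.81 in MoDC (limma, adjusted p = 0.0141; 0.00792 to 0.0908 over the alternatives). A_70_P068436 was at -1.61, -1.66 and -1.36 in MP and at -2.14, -2.54 and -4.46 in MoDC (limma, adjusted p = 0.0481, and 0.0514 with slide as a block, which ended the call; 0.0162 to 0.171 over the alternatives). In both the arrays did not overlap, and without MoDC replicate 3 the difference of the second was 0.80 on the log2 scale and not called. BL_OTH_F000505, the member nearest the limit, was also called higher in MP, at 5.75, 5.72 and 5.09 against 4.27, 4.15 and 4.16 (limma, adjusted p = 0.00773; 0.00269 to 0.0672 over the alternatives). Its call was lost with the 6 MP and MoDC arrays alone (adjusted p = 0.0672), and it no longer met the rule after quantile normalization or in the series table.

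Markers of other cells were measured beside this comparison. LTF was the only 1 of 18 granulocyte markers with a symbol on the array, and others may be present without one. Its linear level was 0.869 to 2.92 in MoDC and 0.0938 to 0.505 in MP. The stromal marker DCN, the only 1 of 14 with a symbol, was at 0.0790 to 0.109 in MoDC and 0.00499 to 0.0118 in MP. Of the T and NK cell markers tested, CD3D and CD3E were called higher in MP and GNLY higher in MoDC. CD3E had a mean of 0.07 in MP and -3.28 in MoDC (limma, adjusted p = 2.1e-04), and CD3D had -2.13 in MP and was not well above background on any MoDC array. The part of such cells in the differences between MP and MoDC was not tested. MP came from spleen and MoDC from culture, so cell type and source cannot be told apart.

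**Figure D3:**
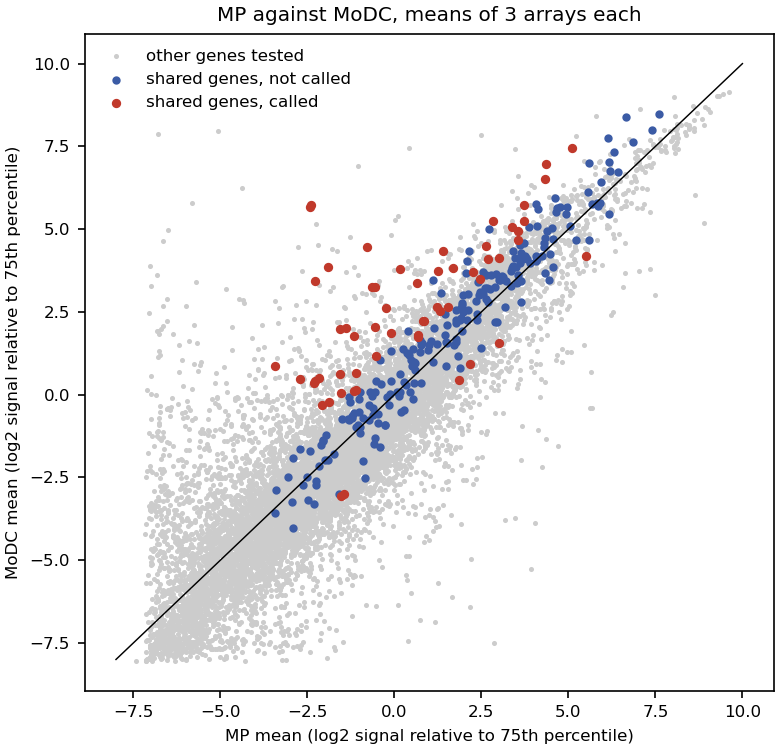
Mean of the 3 MP arrays (horizontal) and of the 3 MoDC arrays (vertical), as log2 signal relative to the 75th percentile, for each gene tested; the line marks equal levels. Of the 277 shared genes, 52 of the 58 called (red) lie above the line and 6 below it.

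Among the subsets that the rule placed below, cDC2 carried the members at the highest level. cDC2 were called higher than pDC in 114 members (41.2%, against 10.8% of all genes) and higher than B in 110 (39.7%, against 11.4%). Over the 8148 genes detected on all MP and MoDC arrays the shares were 11.3% and 11.4%. The 5 of 21 T and NK cell markers with a symbol on the array were summed as linear levels. Their sum was 4.41 to 5.90 in cDC2, 44.6 to 49.2 in pDC and 7.28 to 9.49 in B. HBB was the only 1 of 12 erythroid and platelet markers with a symbol on the array. Its linear level was 0.136 to 1.34 in cDC2, 0.141 to 0.867 in pDC and 0.0105 to 0.0403 in B. The 4 macrophage and monocyte markers, of which CD14 and ITGAM met the rule, summed to 50.5 to 59.5 in cDC2. Their sum was 1.55 to 2.83 in pDC and 1.79 to 4.18 in B. The study considered a limited contamination of sheep cDC2 by pDC likely. The part of such cells in these calls was not tested. The comparisons share the cDC2 arrays, and the rule used every array in them, so the calls are not independent of it. The median difference over the members was 0.91 against pDC and 0.95 against B, while over all genes it was 0.06 and 0.02. With slide as a block the counts fell to 30 (10.8%, against 1.91% of all genes) and 52 (18.8%, against 4.31%). Of the B and pDC arrays, only B replicate 4 shared the slide of the cDC2 arrays, and within that slide all 3 cDC2 arrays lay above it in 211 members (76.2%, against 39.5% of all genes).

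SLC11A1 was 18.9-fold higher in cDC2 than in pDC (limma, adjusted p = 7.9e-04), a call that was lost with slide as a block (adjusted p = 0.232). PGD was 3.39-fold higher in cDC2 than in pDC and 3.92-fold higher than in B (limma, adjusted p = 0.0100 and 0.0027). Neither of these calls held with slide as a block (adjusted p = 0.285 and 0.0771). BL_OTH_F001153 was not well above background on any pDC array, and cDC2 was at least 5.40-fold higher than pDC and 5.51-fold higher than B. BL_OTH_F000649 was 20.3-fold higher in cDC2 than in pDC and 7.37-fold higher than in B. Both members kept both calls with slide as a block (limma, adjusted p from 0.0037 to 0.0126). In that fit each comparison with cDC2 rested on B replicate 4, the only B or pDC array on the cDC2 slide. cDC2 came from blood and B from spleen, so cell type and source cannot be told apart. INHBA and IL1A were not called between cDC2 and pDC or between cDC2 and B (limma, adjusted p from 0.0631 to 0.930), at signals close to background.

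The single cDC1 array has no replicate. It lay below all 3 cDC2 arrays in 167 members (60.3%, against 31.7% of all genes) and above them in 56 (20.2%, against 40.7%). Its median difference from the cDC2 mean was -0.45 over the members and 0.08 over all genes. Between B and pDC, 42 members were called (15.2%, against 9.13% of all genes), and 56.3% of members lay on the B side against 53.1% of all genes.

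**Figure D4:**
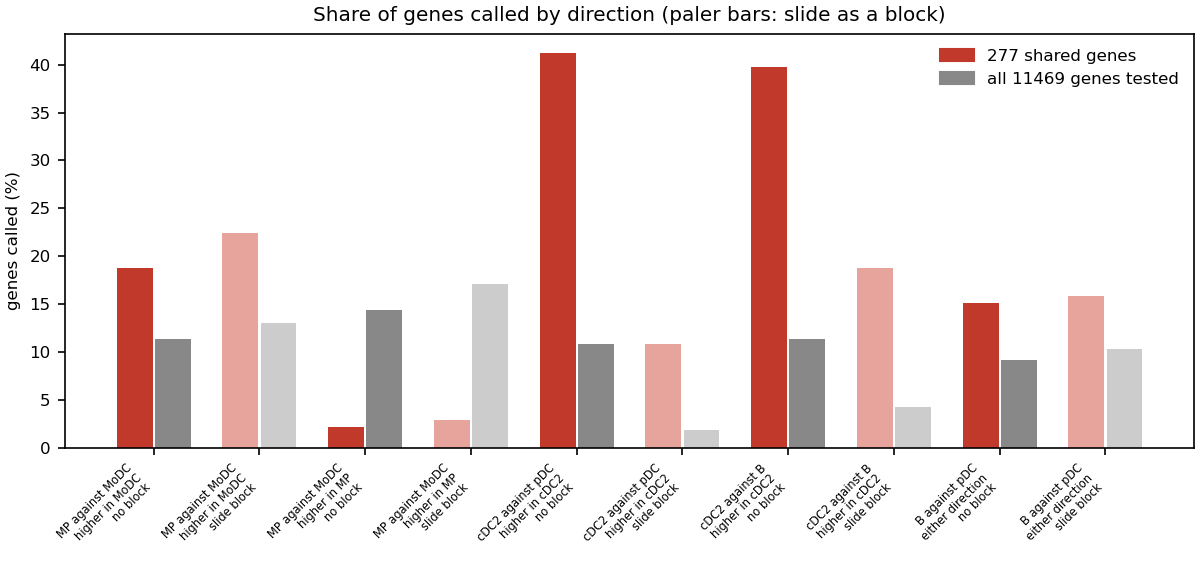
Share of the 277 shared genes (red) and of all 11469 genes tested (grey) called in limma, by comparison and direction, in percent; paler bars show the fit with slide as a block. Shared genes called higher in cDC2 than in pDC fall from 41.2% to 10.8% with the block, and all genes from 10.8% to 1.91%.

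The 6 members with an Ensembl-style number each had a second probe of identical sequence. Its gap ranged from -0.72 to 1.71 and was above 0 in 4 of the 6. Of the 3 members with overlapping sequence, each differed between MP and MoDC by -0.52 to -0.57 on the log2 scale. A lysosome list of 36 genes and a human list of 50 genes taken from the study that separates monocytes, macrophages and MoDC from cDC had no symbol on the array, so they gave no value. Of 90 genes in the corresponding mouse list, 2 were present by symbol, and the probe named PGD was a member. Lists were matched by symbol alone, so genes on them may also be among the members that carry none.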

How the data were processed

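RNA of each sample had been amplified, labelled with Cy3 and hybridised by the authors to a custom ovine Agilent array. The deposited scanner files hold spot intensity, background-corrected by Agilent Feature Extraction 10.7.3.1 (12 arrays) or 10.10.1.1 (5 arrays), with quality flags. The deposited series table holds log2 values of the authors, with column medians of 6.50 to 6.55 and an unstated centring, whose rows were tied to probes by alphabetical order of the names and which served only as an alternative. Here log2 of the processed signal was taken relative to the 75th percentile of each array. Spots of a probe were averaged, outlier spots were set missing in printed values and fits, and each gene was represented by its probe with the highest sum. A gene was tested where 1 or more subsets had over 50% of its spots flagged as above background on each of their arrays, which left 11469 genes, and all 277 members were among them. Group means over all 17 arrays were compared with limma 3.58.1 in R 4.3.3, with Benjamini-Hochberg adjustment over all genes tested and a call at adjusted p under 0.05 and 2-fold. The fit was tested on simulated data. Per the file headers, replicates 1 to 3 of MP, MoDC, B and pDC share a slide by number, and same-numbered MP and MoDC deviated together (r = 0.144, 0.147 and 0.248), so slide was fitted as a block as an alternative. Symbols came from the files (140 probes) or from RefSeq accessions (301 probes, ARS-UI_Ramb_v3.0). Named were the members with a symbol (1 is not reported here), the 6 with the widest gap, the 2 with the widest called difference each way, and those at the limit of the rule. The members and lists were chosen with earlier results of these data known, and the count of distinct sequences and the shares over genes detected on all 6 arrays were added after seeing the data. The number of arrays limits the precision.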

Additional observations from a re-analysis of the deposited data

How the results depend on the processing

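The number of genes that met the rule was 183 after normexp background correction, of which 157 were among the 277, 113 with a gap of at least 1.5-fold, and 281 to 399 when single arrays were left out, the most without MoDC replicate 3. INHBA, IL1A, A_70_P046591, A_70_P060731, A_70_P068436 and BL_OTH_F000327 no longer met the rule after normexp, and PGD, BL_OTH_F000505 and BL_OTH_F000327 no longer did after quantile normalization. Of the members, 30 were called between MP and MoDC from these 6 arrays alone, and 44 to 69 when a single array was left out. Between cDC2 and pDC, 73 were called after normexp and 30 with slide as a block, and 98 to 110 without single arrays. Between cDC2 and B, 52 were called with slide as a block and 87 to 119 without single arrays. Between B and pDC, 22 were called after normexp and 31 to 51 without single arrays. With the block, the 5 members called higher in pDC than in cDC2 and the 2 called higher in B than in cDC2 fell to 0 each, and the counts of MP against MoDC and B against pDC moved by less than 1.5 times. Among the named members the block ended the MP and MoDC call of A_70_P068436 (adjusted p = 0.0514) and added that of BL_OTH_F001536.

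Differences near 0 changed sign, and none of these was called. SLC2A3 was -0.022 after normexp, -0.067 in the series table and -0.24 to 0.52 without single arrays. BL_OTH_F000649 was 0.18 after quantile normalization, 0.24 in the series table and -0.50 to 0.23 without single arrays. A_70_P046781 was -0.033 to 0.38 without single arrays. INHBA, IL1A, ALDH1A1 and A_70_P046591 kept their MoDC-side call under every alternative in which they were tested. The causes of these changes were not tested. The 2 INHBA identifiers of equal sequence gave gaps of 2.17 and 0.67.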
